A study of Homo sapiens with 10 samples.

Results

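Transcripts of 10 chemokine genes were followed in sorted NKX2-1 GFP+ cells of human thyroid organoids. The genes were taken by name, *CXCL1*, *CXCL2*, *CXCL3*, *CXCL5*, *CXCL6*, *CXCL8*, *CCL2*, *CCL20*, *CX3CL1* and *CXCL16*, from the 28265 gene symbols counted in each library. All 10 were listed and all 10 passed the filter on low counts, at least 5 counts in at least 2 libraries, as did 21014 genes in all. *CXCL1*, *CXCL6* and *CCL20* had no counts on day 16 and passed through later days.

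Chemokines are small proteins that guide the movement of leukocytes through G protein-coupled receptors. CXC chemokines with a glutamate-leucine-arginine (ELR) motif, here CXCL1, CXCL2, CXCL3, CXCL5, CXCL6 and CXCL8, attract neutrophils through CXCR2, and CXCL6 and CXCL8 also bind CXCR1. CCL2 attracts monocytes through CCR2, and CCL20 attracts lymphocytes and dendritic cells that carry CCR6. CX3CL1 and CXCL16 are made as membrane-bound proteins, bind CX3CR1 and CXCR6, and are released from the cell surface by ADAM10 and ADAM17. In epithelial cells most of these genes are known targets of the NF-kB transcription factors, which act downstream of interleukin-1, TNF and Toll-like receptors, and thyroid follicular cells in culture are known to release CXCL8 and CCL2 when given such cytokines.

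The cells came from a clone of a human ESC line with GFP in place at one allele of *NKX2-1* and with lentiviral *NKX2-1* and *PAX8* transgenes that doxycycline switches on. By the study's methods every group had Activin A and then a pulse of doxycycline, grew in Matrigel with serum, and was sorted for GFP, with several wells pooled per sample. Days 16, 23, 31, 38 and 45 had 2 libraries each. By the study's text the cells had basal medium up to day 16 and then 8-br-cAMP, an analogue of cAMP that enters cells, which the labels name for days 23 and 31. Day 38 had recombinant human TSH (hrTSH) with the glucocorticoid dexamethasone in place of the analogue, a change that the study's text sets just before the day 31 libraries, so whether the day 31 cells had met hrTSH and dexamethasone is not settled by the sources used here. Day 45 had these with SB431542, an inhibitor of TGFβ receptors. The study's text gives 2 start days for SB431542, one of them just before the day 38 libraries were taken, whose labels name only TSH and dexamethasone, so whether these cells had met the inhibitor is not settled by the sources used here. The labels name cAMP already on day 16 and leave out dexamethasone on day 45. Time in culture and medium changed together and cannot be told apart, and cells kept on cAMP at the later days were not analysed here. Counted totals ran from 7247268 to 10333933 per library, and 1 CPM (a count scaled to library size with TMM factors) was about 7 to 10 counts.

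The labelled cell type was checked against its markers. *PAX8*, a thyroid transcription factor, lay between 477 and 728 CPM in the 10 libraries, and *CDH1*, the epithelial cadherin, between 494 and 708 CPM. *EPCAM*, another epithelial adhesion protein, lay between 245 and 443 CPM. Other markers ended lower than they began. *FOXE1*, a thyroid transcription factor, went from 897 and 630 CPM on day 16 to 204 and 218 CPM on day 45, and the keratins *KRT8* and *KRT18* went from 806 and 813 CPM to 428 and 436 CPM and from 430 and 459 CPM to 186 and 203 CPM. *TG*, the thyroid hormone precursor protein, rose from 10.7 and 11.7 CPM on day 16 to 7964 and 7525 CPM on day 45. The sorted cells therefore carried epithelial and thyroid transcripts at every day, but the libraries are bulk samples, in which fewer cells of a type and less RNA per cell cannot be told apart, and no value here places a chemokine in one cell type.

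Summed over the 10 genes, chemokine transcripts rose from 56.4 and 42.6 CPM in the libraries of day 16 to 1835 and 1752 CPM on day 45. Day 23 held 44.7 and 38.5 CPM, day 31 held 123 and 95.5 CPM, and day 38 held 527 and 473 CPM. The sums of day 16 and day 23 overlapped, and from day 23 on the libraries of each day lay above those of the day before. The gene by gene plot shows where this came from. *CXCL2* and *CXCL8* climbed highest. *CXCL1*, *CXCL3*, *CCL2* and *CCL20* went from low levels up to day 31 to between 47.9 and 108 CPM on day 45, and *CXCL5* rose less. *CX3CL1* went from 3.42 and 1.97 CPM on day 16 to 21.5 and 12.2 CPM on day 45, and *CXCL6* and *CXCL16* stayed low throughout.

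**Figure D1:**
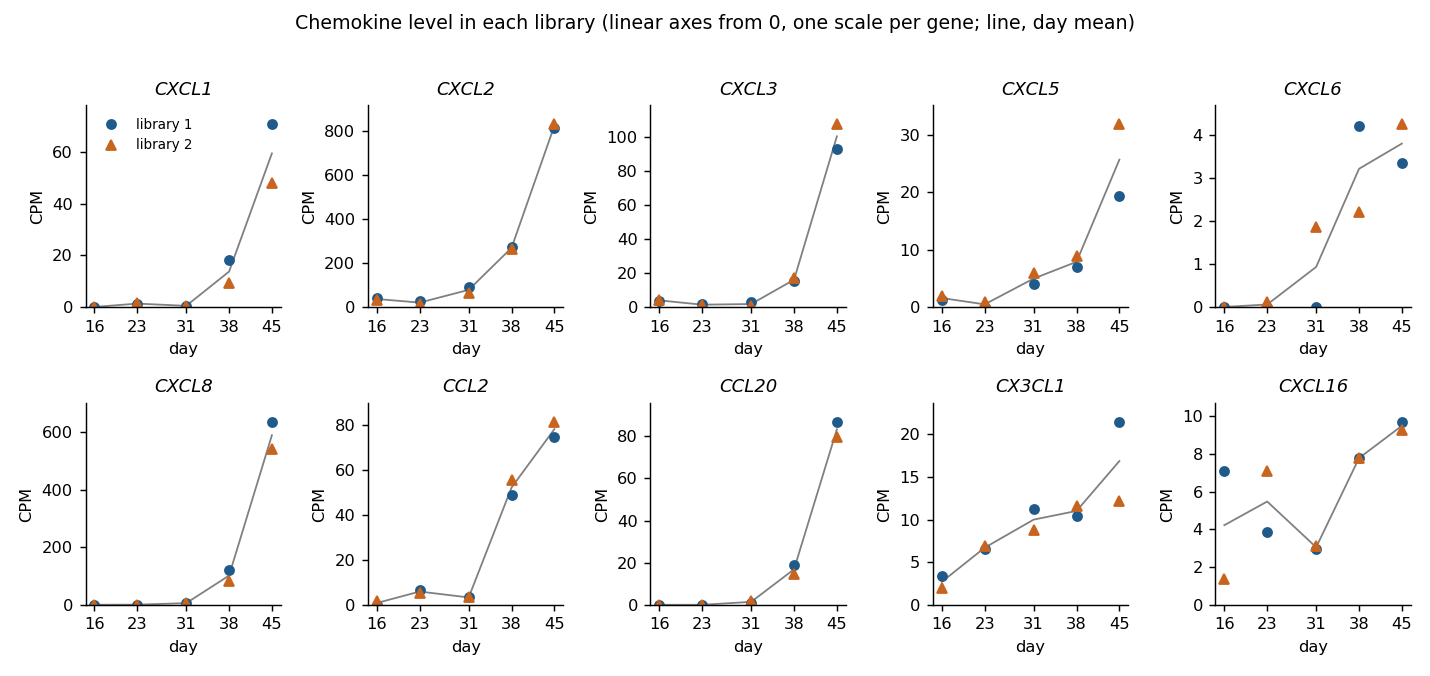
Level of each of the 10 chemokine genes (CPM, linear axes from 0 with one scale per gene) by day of culture. Circles and triangles are the 2 libraries of a day, whose numbers are not known to pair across days, and the line joins the day means. *CXCL8* reached 638 and 543 CPM on day 45 from 0.380 and 0 CPM on day 16, while the libraries of *CXCL16* on day 16 lay on both sides of those on day 31.

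The 6 ELR genes lie together on chromosome 4, within 359 kb of GRCh38 by GENCODE 44. In order they are *CXCL8* (chr4:73740519-73743716, + strand), *CXCL6* (chr4:73836640-73849064, + strand), *CXCL1* (chr4:73869393-73871308, + strand), *CXCL5* (chr4:73995642-73998677, - strand), *CXCL3* (chr4:74036589-74038807, - strand) and *CXCL2* (chr4:74097040-74099196, - strand). *CCL20* is on chromosome 2 (chr2:227805739-227817564, + strand), *CX3CL1* on chromosome 16 (chr16:57372477-57385044, + strand), and *CXCL16* (chr17:4733533-4739928, - strand) and *CCL2* (chr17:34255274-34257208, + strand) are on chromosome 17. Reads can be shared between near copies: 5.33% of the *CXCL1* transcript, 10.1% of *CXCL2* and 5.26% of *CXCL3* consist of 50-base stretches found in another of these genes. *CXCL5* shares 17.3% of its exons with a long non-coding RNA on the opposite strand (ENSG00000287037), and *CXCL16* shares 2.72% with *MED11* and 3.44% with *ZMYND15*, also opposite. *CXCL6* shares 4.61% with the pseudogene *PPBPP1* on the same strand. Neither the strand setting of the counting nor its handling of reads in such overlaps is given in the sources used here. Counts of these genes could therefore hold reads of their neighbours or lack reads of their own. No 50-base stretch of *CXCL8*, *CCL2*, *CCL20* or *CX3CL1* was found in another gene.

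Because several of these genes rose at the same days, their promoters were compared for shared letters. The RefSeq promoter table (GRCh38.p14) held *CXCL1*, *CXCL2*, *CXCL3*, *CXCL5*, *CXCL6*, *CXCL8* and *CCL20*, 7 of the 10. In the 250 bases before the start site, 7 of these 7 held the kappaB motif GGNNTTTCC, searched on both strands with N for any base, against 5.485% of 35116 promoters and 5.796% of the 20892 promoters of tested genes. The AP-1 motif TGANTCA was in 1 of 7 (*CXCL8*) against 6.573% of all promoters, the cAMP response element TGACGTCA in 0 of 7 against 1.646%, and TATAAA in 2 of 7 (*CXCL8* and *CCL20*) against 10.72%. The motifs searched do not overlap one another in these promoters. Positions -145 to -41, counted back from each start site, are shown because they hold every kappaB match and the AP-1 match, on the strand of the gene, with matches in capitals. The windows are chr4:73869248-73869352 (*CXCL1*), chr4:74099236-74099340 (*CXCL2*), chr4:74038730-74038834 (*CXCL3*), chr4:73998718-73998822 (*CXCL5*), chr4:73836533-73836637 (*CXCL6*), chr4:73740424-73740528 (*CXCL8*) and chr2:227813697-227813801 (*CCL20*).
CXCL1: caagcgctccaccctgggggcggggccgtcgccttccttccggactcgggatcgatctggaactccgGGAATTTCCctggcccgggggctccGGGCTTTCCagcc
CXCL2: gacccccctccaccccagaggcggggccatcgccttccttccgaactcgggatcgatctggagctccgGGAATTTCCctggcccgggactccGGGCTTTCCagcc
CXCL3: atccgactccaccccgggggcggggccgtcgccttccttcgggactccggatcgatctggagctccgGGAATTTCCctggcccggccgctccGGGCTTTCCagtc
CXCL5: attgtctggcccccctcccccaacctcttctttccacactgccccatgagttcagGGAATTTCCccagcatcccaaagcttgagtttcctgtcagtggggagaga
CXCL6: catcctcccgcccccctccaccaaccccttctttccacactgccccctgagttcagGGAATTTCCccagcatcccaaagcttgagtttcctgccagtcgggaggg
CXCL8: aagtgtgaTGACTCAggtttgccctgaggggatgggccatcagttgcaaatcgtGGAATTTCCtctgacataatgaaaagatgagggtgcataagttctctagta
CCL20: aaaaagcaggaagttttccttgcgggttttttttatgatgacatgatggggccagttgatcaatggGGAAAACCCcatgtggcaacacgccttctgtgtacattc

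The 6 ELR promoters carried the same letters, GGAATTTCC, all between positions -91 and -69. *CXCL1*, *CXCL2* and *CXCL3* carried a second match, GGGCTTTCC, closer to the start. Their windows were 87.6 to 90.5% identical to one another when aligned with gaps allowed, as for every identity given here. Gaps can raise the identity of windows that are unlike. *CXCL5* and *CXCL6* were 89.5% identical and had a single match. *CXCL8* was the ELR gene with the AP-1 match, and its window was 43.8 to 49.5% identical to those of the other 5. In *CCL20* the match, GGAAAACCC, was on the opposite strand. These matches describe the letters of the reference genome and show neither binding nor use of a site in these cells.

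**Figure D2:**
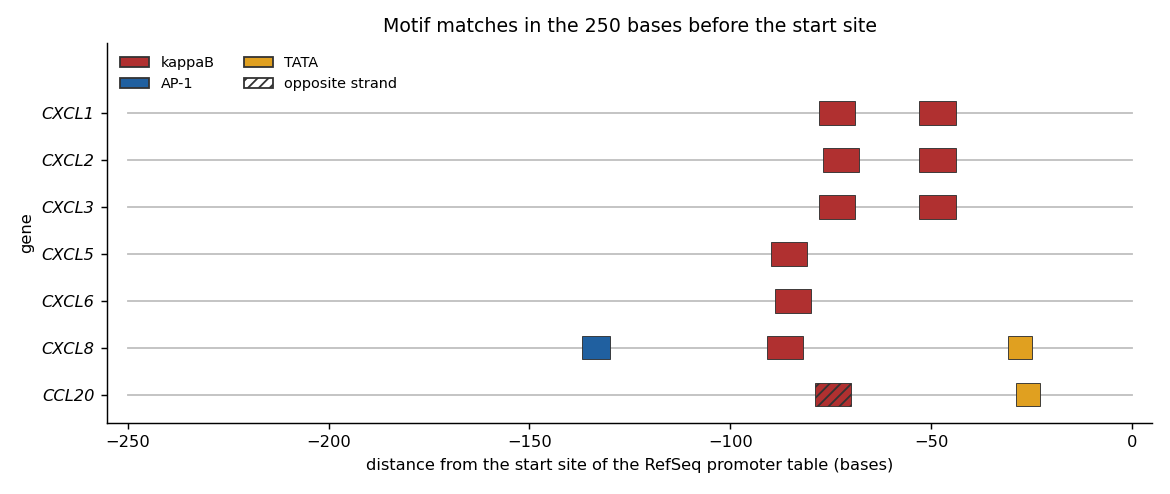
Motif matches in the 250 bases before the RefSeq start site of 7 chemokine genes, by distance from the start site (bases). Red blocks are kappaB matches, blue AP-1 and yellow TATA, and hatching marks the opposite strand. Each promoter has a kappaB match between position -91 and the start site, and *CXCL1*, *CXCL2* and *CXCL3* have 2.

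*CXCL2* was the most abundant of the 10 genes per kilobase of exon at every day, and its libraries lay above those of the next gene each time. It stood at 40.6 and 31.8 CPM on day 16, 24.9 and 14.9 CPM on day 23, 91.2 and 64.6 CPM on day 31, 275 and 263 CPM on day 38, and 817 and 835 CPM on day 45. The libraries of successive days did not overlap at any step: the level fell to day 23 and then rose at each interval. The test was the quasi-likelihood one of edgeR, adjusted after Benjamini and Hochberg over the 21014 genes, as for every adjusted p given here. The log2 fold change was -0.86 ± 0.19 (SE; adjusted p = 0.00154) from day 16 to day 23. It was 1.97 ± 0.18 to day 31 (edgeR's adjusted p = 9.39e-09), 1.79 ± 0.17 to day 38 (edgeR's adjusted p = 3.79e-10) and 1.62 ± 0.16 to day 45 (edgeR's adjusted p = 4.79e-09). The early fall was not called without day 23 replicate 2, at -0.54 with an adjusted p of 0.144 by edgeR.

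*CXCL8*, the gene of interleukin-8, went from near nothing to the second most abundant of the set. Its raw counts were 3 and 0 on day 16, 2 and 6 on day 23, 61 and 45 on day 31, 1119 and 708 on day 38, and 4393 and 4973 on day 45. Days 16 and 23 overlapped at a few counts, and each later day lay wholly above the one before. From 8 counts on day 23 to 106 on day 31 the ratio was 12.8, with an exact 95% interval of 6.28 to 30.5 that covers counting error only. The level then rose 17.6-fold to day 38, a log2 fold change of 4.14 ± 0.22 (edgeR's adjusted p = 2.44e-16), and a further 5.80-fold to day 45, 2.54 ± 0.18 (edgeR's adjusted p = 2.81e-12). On day 45 *CXCL8* stood at 638 and 543 CPM.

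*CXCL1* and *CXCL3*, near relatives of *CXCL2*, followed with most of their rise after day 31. *CXCL1* had raw counts of 0 and 0 on day 16, 9 and 14 on day 23, 5 and 3 on day 31, 167 and 80 on day 38, and 488 and 439 on day 45. Its level on day 23 was thus at least 3.46-fold that of day 16, which was taken at a floor of 3 counts in each library. From day 31 to day 38 its counts went from 8 to 247, a ratio of 31.8 (exact 95% interval 15.9 to 74.4, counting error only), and the rise to day 45 was 4.33-fold, 2.11 ± 0.39 on the log2 scale (edgeR's adjusted p = 0.00018). *CXCL1* was therefore present in the libraries of day 23 and near the floor again on day 31, a difference that was not called (log2 fold change -1.55 ± 0.65, edgeR's adjusted p = 0.316).

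*CXCL3* was at 3.68 and 4.06 CPM on day 16, 1.66 and 1.03 CPM on day 23, 2.87 and 0.582 CPM on day 31, 15.2 and 16.8 CPM on day 38, and 92.9 and 108 CPM on day 45. The 2 libraries of day 31 spanned those of day 23, and those of days 38 and 45 were far above. The log2 fold change was 3.17 ± 0.40 from day 31 to day 38 (edgeR's adjusted p = 2.51e-07) and 2.65 ± 0.34 to day 45 (edgeR's adjusted p = 4.63e-07), and the last step had the highest estimate of the 10 genes between days 38 and 45, next to 2.54 for *CXCL8*. The lower level on day 23 than on day 16, -1.51 ± 0.46 (edgeR's adjusted p = 0.028), was not called in 5 of the 10 fits that left out a library, those without either library of day 16, either of day 23 or day 45 replicate 2 (adjusted p 0.0537 to 0.233).

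*CXCL5* and *CXCL6*, the pair with like promoter windows, were lower per kilobase of exon than the other ELR genes on day 45. *CXCL5* had 1.14 and 1.97 CPM on day 16, 0 and 0.915 CPM on day 23, 3.99 and 5.93 CPM on day 31, 6.91 and 8.85 CPM on day 38, and 19.5 and 32.0 CPM on day 45. It had 8 counts in all on day 23 and 90 on day 31, a ratio of 10.9 (exact 95% interval 5.29 to 26.0, counting error only), and this difference was called (edgeR's adjusted p = 0.00541), though not without day 23 replicate 1 (adjusted p = 0.125) or day 31 replicate 2 (adjusted p = 0.0669). From day 38 to day 45 the log2 fold change was 1.71 ± 0.56 (edgeR's adjusted p = 0.0438), a call lost in 5 of the 10 fits that left out a library, those without day 31 replicate 2 or any of the 4 libraries compared (adjusted p 0.055 to 0.384). *CXCL6* held 0 and 0 raw counts on day 16, 0 and 1 on day 23, 0 and 16 on day 31, 39 and 19 on day 38, and 23 and 39 on day 45, and no step of *CXCL6* was called. Its day 38 and day 45 libraries overlapped.

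*CCL2* and *CCL20*, the CC chemokines of the set, both rose from day 31 to day 38. *CCL2* had raw counts of 1 and 12 on day 16, 58 and 47 on day 23, 32 and 28 on day 31, 454 and 476 on day 38, and 516 and 747 on day 45. Its level was higher on day 23 than on day 16 (log2 fold change 2.84 ± 0.47, edgeR's adjusted p = 4.3e-05) and rose 15.9-fold from 3.28 and 3.26 CPM on day 31 to 49.0 and 55.4 CPM on day 38 (3.99 ± 0.35, edgeR's adjusted p = 1e-10). Between day 38 and day 45 its libraries did not overlap, at 74.9 and 81.6 CPM on the later day, but the difference of 0.58 ± 0.29 on the log2 scale was not called (edgeR's adjusted p = 0.231). In a fit of the 4 libraries of those days alone it was called (log2 fold change 0.61, edgeR's adjusted p = 0.017). The rise from day 16 to day 23 was not called in a fit of only its own 4 libraries (log2 fold change 2.85, edgeR's adjusted p = 0.0773).

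*CCL20* had no counts in the 4 libraries of days 16 and 23. It had 9 and 16 counts on day 31, 175 and 127 on day 38, and 599 and 729 on day 45, so that each of these days lay above the one before. The level on day 31 was at least 4.12-fold that of day 23, which was taken at a floor of 3 counts per library. The difference was called (edgeR's adjusted p = 0.00078), though not in a fit of only the 4 libraries of those days (edgeR's adjusted p = 0.342). The level rose 12.2-fold to 18.9 and 14.8 CPM on day 38 (log2 fold change 3.60 ± 0.40, edgeR's adjusted p = 3.36e-08) and 4.94-fold to 87.0 and 79.6 CPM on day 45 (2.30 ± 0.33, edgeR's adjusted p = 4.52e-06).

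*CX3CL1* and *CXCL16*, the membrane-bound chemokines, did not pass the test at any of the 4 steps. *CX3CL1* was at 3.42 and 1.97 CPM on day 16, 6.54 and 6.86 CPM on day 23, 11.3 and 8.73 CPM on day 31, 10.4 and 11.6 CPM on day 38, and 21.5 and 12.2 CPM on day 45. Its day means climbed, but days 31 and 38 overlapped, and the largest step, from day 16 to day 23, had a log2 fold change of 1.31 ± 0.50 (edgeR's adjusted p = 0.0918). *CXCL16* was at 7.10 and 1.35 CPM on day 16, 3.88 and 7.09 CPM on day 23, 2.97 and 3.14 CPM on day 31, 7.78 and 7.80 CPM on day 38, and 9.73 and 9.28 CPM on day 45. The libraries of day 16 spanned those of days 23 and 31, and the difference between day 31 and day 45 of 1.63 ± 0.65 (log2 scale) missed the threshold (edgeR's adjusted p = 0.0666), and passed it without either library of day 16 (adjusted p 0.0299 and 0.0411).

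The calls over the set are given step by step, each beside the share of all genes tested. From day 16 to day 23, 2 of the 10 genes were called higher (*CXCL1* and *CCL2*), against 5.6% of all genes tested, and 2 lower (*CXCL2* and *CXCL3*), against 5.33%. From day 23 to day 31, 4 were higher (*CXCL2*, *CXCL5*, *CXCL8* and *CCL20*), against 1.58% of all genes, and 0 lower, against 0.666%. From day 31, labelled with cAMP, to day 38, labelled with TSH and dexamethasone, 6 were higher (*CXCL1*, *CXCL2*, *CXCL3*, *CXCL8*, *CCL2* and *CCL20*), against 8.8%, and 0 lower, against 6.23%. From day 38 to day 45, 6 were higher (*CXCL1*, *CXCL2*, *CXCL3*, *CXCL5*, *CXCL8* and *CCL20*), against 4.85%, and 0 lower, against 6.35%. Between day 31 and day 45 directly, 7 were higher, against 11.3%, and 0 lower, against 11.1%, and the exceptions were *CXCL6*, *CX3CL1* and *CXCL16*. DESeq2 also called 0 lower in these 4 comparisons, and at an unadjusted p under 0.05 edgeR had 2 lower from day 23 to day 31 and 0 in the other comparisons. The call of *CXCL5* between day 31 and day 45 was lost without day 31 replicate 1 (edgeR's adjusted p = 0.0548) or day 45 replicate 2 (adjusted p = 0.0841). The median log2 fold change of the 10 was 2.48 from day 31 to day 38, with 0 over all genes tested, and 1.66 from day 38 to day 45, with -0.02 over all genes. The fit of only the 4 libraries compared called 0 of the 7 genes it tested between days 16 and 23, with 3 at an unadjusted p under 0.05, and 1 of 9 between days 23 and 31. The share of all genes called in that fit is not given here, so these losses cannot be read as particular to the chemokines. Without TMM factors the median of all genes shifted by -0.20 between days 31 and 38 and by -0.14 between days 31 and 45, and the higher share of all called genes went from 58.5 to 33.3% and from 50.3 to 35.8%, while the chemokine calls kept their numbers, 6 and 7.

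**Figure D3:**
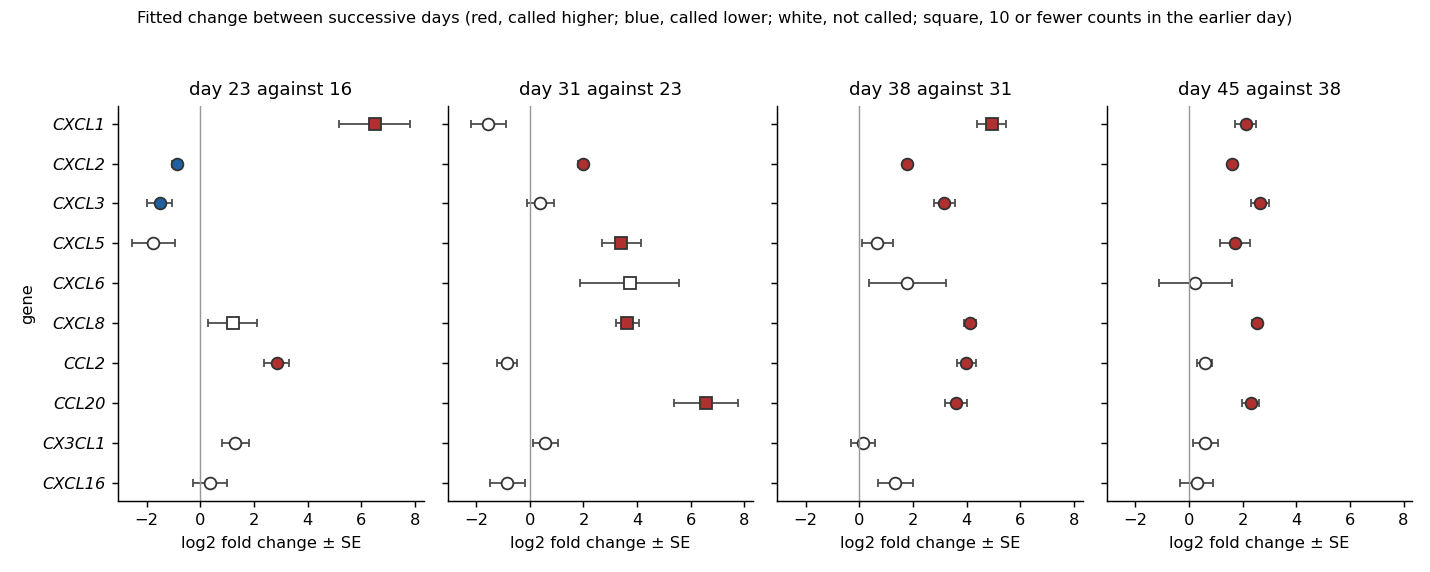
Fitted log2 fold change (± SE) of each chemokine gene between successive days. Red is called higher and blue lower by edgeR at an adjusted p under 0.05, white is not called, and squares mark genes with 10 or fewer counts in the earlier day, whose fitted values depend on the prior count of the fit. *CXCL6* and *CCL20* are left out from day 16 to day 23, where they had at most 1 count. All called points of the last 2 steps lie to the right of 0.

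The share of each gene in the summed chemokine counts changed between days. *CXCL2* made up 71.9% (exact 95% interval 67.5 to 76.0) and 74.6% (69.6 to 79.1) of the counts in the libraries of day 16. On day 23, when the total was lowest, the libraries stood apart at 55.8% (50.8 to 60.7) and 38.6% (33.4 to 44.003), and on day 31 the share was 74.0% (71.4 to 76.5) and 67.6% (64.3 to 70.8). It was 52.3% (50.9 to 53.7) and 55.7% (54.2 to 57.3) on day 38, and on day 45 *CXCL2* made up 44.5% (43.7 to 45.4) and 47.6% (46.9 to 48.4). The share of *CXCL8* was 5.07% (3.90 to 6.46) and 5.48% (4.03 to 7.27) on day 31, 22.95 and 17.4% on day 38, and 34.8% (33.9 to 35.6) and 30.99% (30.3 to 31.7) on day 45. The libraries of days 31, 38 and 45 did not overlap in the share of either gene. The intervals cover counting error only, and no molecular identifiers are named in the methods.

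**Figure D4:**
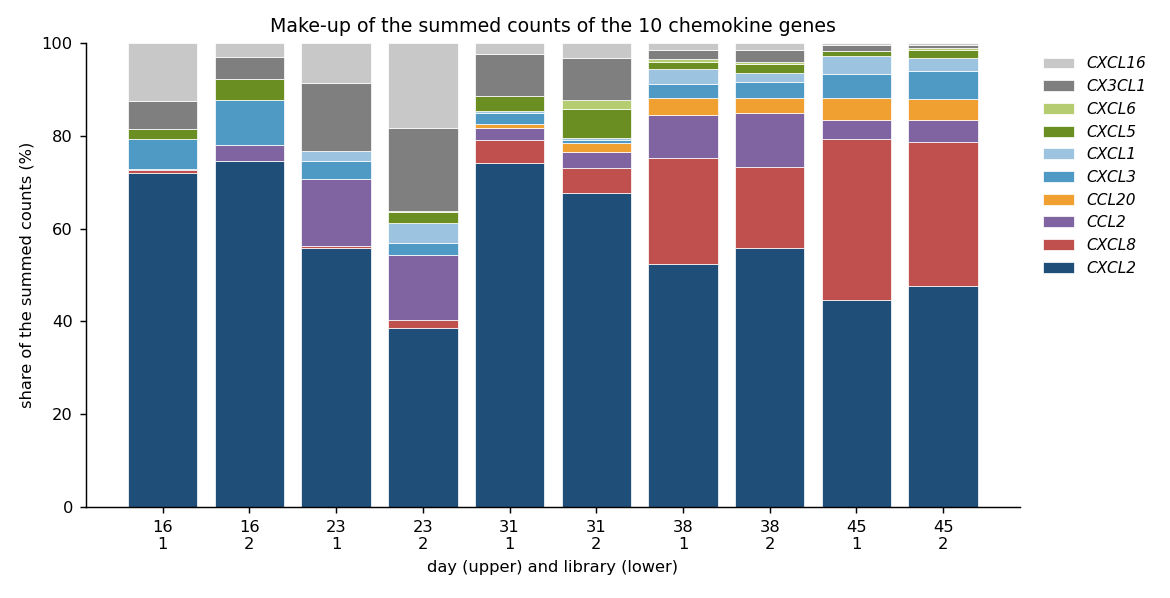
Share of each gene (%) in the summed counts of the 10 chemokine genes in each library. *CXCL2* holds the largest share in all 10 libraries, and *CXCL8* goes from at most 1.78% up to day 23 to 30.99 and 34.8% on day 45.

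Compared per kilobase of exon, the order of the levels on day 45 was *CXCL2* (591 ± 8.73 CPM per kb, SD, n = 2), *CXCL8* (228 ± 25.9), *CCL20* (52.3 ± 3.26), *CXCL3* (45.2 ± 4.71), *CXCL1* (43.6 ± 11.9), *CCL2* (40.4 ± 2.44), *CXCL5* (10.6 ± 3.64), *CXCL16* (3.40 ± 0.112), *CX3CL1* (2.83 ± 1.098) and *CXCL6* (1.86 ± 0.319). The libraries of *CXCL3* and *CXCL1* overlapped, as did those of *CXCL1* and *CCL2*, of *CXCL16* and *CX3CL1*, and of *CX3CL1* and *CXCL6*. The other neighbours in this order were separate. These lengths counted every annotated exon of a gene. For *CCL2* this gave 1935 bases, its whole gene span, against 741 in the transcript searched for shared stretches. For *CCL20* it gave 1594 bases against 834. Ranks below *CXCL8* can therefore change with the lengths used, and an order by transcript length was not tested. On day 16 *CXCL2* (25.9 ± 4.45 CPM per kb) stood alone above *CXCL3* (1.74 ± 0.123) and *CXCL16* (1.51 ± 1.45), which overlapped.

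The receptors of these chemokines were scarce in the sorted cells. *CXCR1* and *CCR2* had 0 counts in all 10 libraries, *CXCR2* had 7 counts in 1 library and 0 in the others, *CCR6* had at most 10 and *CX3CR1* at most 14. Of the 10 receptors listed, 5 were tested. From day 31 to day 38, 0 were called (against 8.8% higher and 6.23% lower of all genes; also 0 by DESeq2 and at an unadjusted p under 0.05), and from day 38 to day 45, 0 were higher and 1 lower (against 4.85 and 6.35%). This was *CXCR6*, the receptor of CXCL16, which held 48 and 61 counts on day 38 and 0 and 0 on day 45 (edgeR's adjusted p = 5.72e-06). *CXCR6* had held 46 to 79 counts in each earlier library, and no 50-base stretch of its transcript was found in another gene. *ACKR3*, a scavenging receptor of CXCL12, lay at 53.5 and 55.2 CPM on day 16 and 22.4 and 20.5 CPM on day 45, with no step from day 31 on called. *ADAM10*, which sheds both membrane-bound chemokines, rose from 361 and 335 CPM on day 31 to 635 and 638 CPM on day 38 (log2 fold change 0.87 ± 0.12, edgeR's adjusted p = 1.83e-06), and *ADAM17* was between 72.3 and 97.0 CPM in all libraries with no step from day 31 on called.

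The other chemokine genes were mostly too low to be tested. Of 34 listed, 11 were tested. From day 31 to day 38, 1 was called higher and 1 lower, against 8.8 and 6.23% of all genes tested, and from day 38 to day 45, against 4.85 and 6.35%, 0 were higher and 1 lower by edgeR and DESeq2, with 1 higher at an unadjusted p under 0.05. *CXCL14*, an epithelial chemokine, was at 5.22 and 8.61 CPM on day 31, 33.6 and 28.5 CPM on day 38, and 11.03 and 9.502 CPM on day 45, so that it rose (log2 fold change 2.17 ± 0.42, edgeR's adjusted p = 0.000229) and then fell (-1.60 ± 0.41, edgeR's adjusted p = 0.00695). *CXCL12*, a homeostatic chemokine of stromal cells, fell from 120 and 124 CPM on day 31 to 39.1 and 44.8 CPM on day 38 (-1.54 ± 0.20, edgeR's adjusted p = 2.76e-07) and held 48.8 and 36.0 CPM on day 45. The interferon-induced *CXCL9*, *CXCL10* and *CXCL11*, also named after their values were seen, had no more than 0.112 CPM as a mean of any day. *CCL3*, *CCL4* and *CCL5*, chosen in the same way, reached at most 1.67 CPM as a day mean, but 84.0 to 88.4% of their transcripts are repeated on alternate contigs of GRCh38, where reads could be lost.

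The NF-kB pathway acts on many chemokine promoters. The list for it held 19 genes: factors, inhibitors, kinases, feedback genes and target genes. Of these 19, 5 were called higher and 1 lower from day 31 to day 38, against 8.8 and 6.23% of all genes. The other 13 were not called. From day 38 to day 45, 10 were higher and 0 lower, also at an unadjusted p under 0.05 and by DESeq2, against 4.85 and 6.35%. Their median log2 fold change was 0.46 at the earlier step and 1.02 at the later one, against 0 and -0.02 over all genes tested. *NFKB1*, which encodes the p105/p50 subunit, was at 38.6 and 43.3 CPM on day 31, 32.9 and 40.9 CPM on day 38 and 170 and 203 CPM on day 45, a rise of 2.34 ± 0.19 on the log2 scale (edgeR's adjusted p = 7.11e-11) in which the groups did not overlap. *TNFAIP3*, the A20 feedback inhibitor, rose from 14.02 and 22.3 CPM on day 31 to 60.1 and 59.0 CPM on day 38 and to 301 and 303 CPM on day 45 (edgeR's adjusted p = 1.75e-07 and 1.96e-10). *ICAM1*, a leukocyte adhesion molecule, stood at 7.47 and 13.5 CPM, then 24.1 and 19.9 CPM, then 126 and 109 CPM at these days, and *BIRC3*, an inhibitor of apoptosis, went from 8.32 and 6.52 CPM on day 38 to 27.7 and 36.0 CPM on day 45 (edgeR's adjusted p = 0.023). *NFKBIA*, the IκBα gene, and *TNIP1* each rose from day 31 to day 38 by 0.78 on the log2 scale (edgeR's adjusted p = 0.000117 and 0.00442), and *NFKBIZ* fell by 0.56 (edgeR's adjusted p = 0.00277) before it rose by 1.26 to day 45 (edgeR's adjusted p = 1.83e-08). At the earlier step *NFKB1* itself was not called (-0.15 ± 0.19 on the log2 scale, edgeR's adjusted p = 0.693). The part of these genes in the chemokine levels was not tested.

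**Figure D5:**
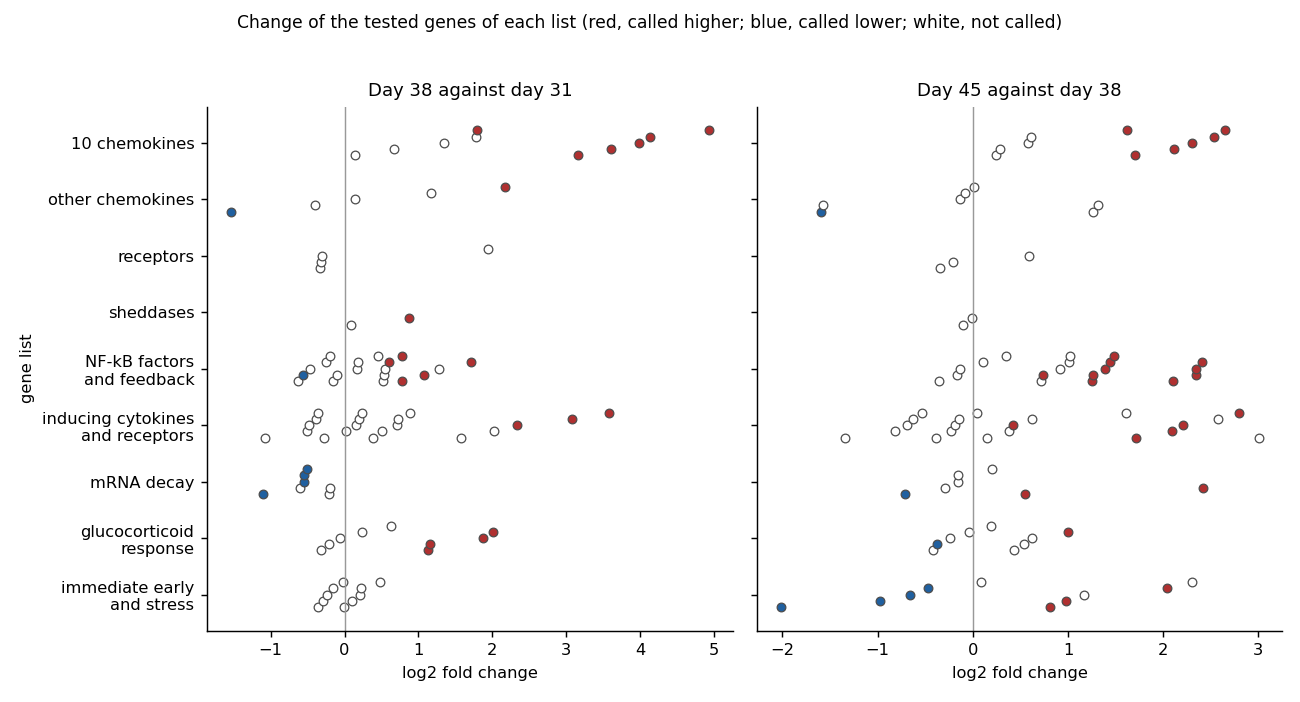
Fitted log2 fold change of the genes of each list from day 31 to day 38 (left) and from day 38 to day 45 (right). Each point is a tested gene with more than 3 counts in each of the 2 days, red if called higher, blue if called lower and white if not called, with small vertical offsets for sight. For the 19 genes of the NF-kB list, 5 points are red on the left and 10 on the right, and for the 10 chemokines 6 are red on each side.

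Cytokines and receptors that act upstream of chemokine genes were also listed. Of 25, 22 were tested, 3 were called higher and 0 lower from day 31 to day 38 (against 8.8 and 6.23% of all genes), and 5 higher and 0 lower from day 38 to day 45 (against 4.85 and 6.35%). DESeq2 called 2 and 4 higher and 0 lower, and 1 and 2 were lower by edgeR at an unadjusted p under 0.05. *IL1R1*, the signalling receptor of interleukin-1, rose from 16.2 and 23.5 CPM on day 31 to 101 and 99.4 CPM on day 38 (log2 fold change 2.34 ± 0.27, edgeR's adjusted p = 3.69e-08) and stood at 163 and 145 CPM on day 45. *IL33* and *IL6*, named after their values were seen, were the others called on day 38 (edgeR's adjusted p = 0.00323 and 0.0478). *IL1B*, an agonist of that receptor, went from 5.72 and 3.14 CPM on day 38 to 20.03 and 18.0 CPM on day 45 (2.09 ± 0.61, edgeR's adjusted p = 0.0188), and *LIF*, a cytokine of the interleukin-6 family, from 8.53 and 8.73 to 24.1 and 32.5 CPM (edgeR's adjusted p = 0.0228). *IL6ST*, the shared receptor of that family, rose by 0.42 (edgeR's adjusted p = 0.0371), and *IL1A* and *IL6*, chosen after their values were seen, completed the 5 (edgeR's adjusted p = 0.0469 and 0.037). *TNF*, named after its value was seen, was listed at 0 in every library, but 91.3% of its transcript is repeated on alternate contigs, so this 0 says nothing of its level.

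Many chemokine mRNAs carry AU-rich elements and are short-lived, and genes of proteins that bind such elements or cut inflammatory mRNAs were also listed. Of 7 genes, 0 were called higher and 4 lower from day 31 to day 38 (against 8.8 and 6.23% of all genes), and 2 higher and 1 lower from day 38 to day 45 (against 4.85 and 6.35%). *ZFP36*, tristetraprolin, which speeds the decay of AU-rich mRNAs, fell from 422 and 350 CPM on day 31 to 198 and 161 CPM on day 38 (log2 fold change -1.11 ± 0.15, edgeR's adjusted p = 5.88e-07) and rose to 254 and 268 CPM on day 45 (edgeR's adjusted p = 0.0109). *ZFP36L1*, of the same family, fell at both steps (-0.51 ± 0.11 and -0.71 ± 0.12, edgeR's adjusted p = 0.0013 and 2.86e-05), and *HNRNPD* and *KHSRP* fell at the earlier one by 0.54 and 0.56. *ZC3H12A*, the regnase-1 endonuclease, rose from 9.505 and 11.1 CPM on day 38 to 61.7 and 48.2 CPM on day 45 (2.42 ± 0.35, edgeR's adjusted p = 4.29e-06).

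Glucocorticoids are known to lower many inflammatory transcripts, and the labels name dexamethasone on day 38 and not on day 31. Of 9 glucocorticoid response genes, 4 were called higher and 0 lower between these days (against 8.8 and 6.23% of all genes), and 1 higher and 1 lower from day 38 to day 45 (against 4.85 and 6.35%, and 3 higher and 1 lower by DESeq2). *FKBP5*, a co-chaperone of the glucocorticoid receptor, rose from 34.1 and 39.8 CPM to 142 and 157 CPM (log2 fold change 2.02 ± 0.23, edgeR's adjusted p = 3.98e-08) and stood at 123 and 129 CPM on day 45. *ZBTB16*, *SGK1* and *TSC22D3* (GILZ) rose with it by 1.87, 1.15 and 1.13 (edgeR's adjusted p = 0.00469, 0.000305 and 4.9e-06). The 6 chemokines called on day 38 rose in the same libraries. The part of dexamethasone in the chemokine levels was not tested.

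Immediate early genes, which dissociation and sorting of cells can induce, moved in both directions at the last step. Of 11 listed, 10 were tested, and 0 were called in either direction from day 31 to day 38 by edgeR (against 8.8 and 6.23% of all genes) or DESeq2, with 1 higher and 2 lower at an unadjusted p under 0.05. From day 38 to day 45, 3 were higher and 4 lower, against 4.85 and 6.35% of all genes. *FOS* fell from 1518 and 1401 CPM to 382 and 338 CPM (log2 fold change -2.02 ± 0.11, edgeR's adjusted p = 5.72e-15), and *EGR1*, *IER2* and *JUN* fell by 0.98, 0.66 and 0.47. *DNAJB1*, a heat shock co-chaperone, *ATF3* and *FOSB* rose by 2.04, 0.98 and 0.81 (edgeR's adjusted p = 4.59e-11, 4.17e-06 and 4.78e-05).

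Markers of other cells moved with the chemokines at some steps. *PTPRC* (CD45), the defining leukocyte marker, held 64 and 17 counts on day 16 and 4 and 0 counts on day 45. Of 9 leukocyte markers, 5 were tested, 0 higher and 2 lower from day 31 to day 38 (against 8.8 and 6.23% of all genes), and 3 higher (*CD14*, *CD68* and *CSF1R*) and 0 lower from day 38 to day 45 (against 4.85 and 6.35%). Summed, they held 12.9 and 6.52 CPM on day 38 and 48.2 and 47.8 CPM on day 45, of which *CD68*, the most abundant, made up 36.4 and 35.9 CPM, and 97.2% of the *CD68* transcript is shared with an overlapping gene. *CSF1R* went from 2 and 5 counts to 39 and 70, *CD14* from 0 and 0 to 22 and 36, *TYROBP* had 4 and 0 counts on day 45, and *CD3E* and *LST1* were at 0 (74.6% of *LST1* is repeated on alternate contigs). In the earlier libraries the sum was 29.9 and 13.1 CPM on day 16, 7.20 and 10.98 CPM on day 23, and 13.1 and 15.1 CPM on day 31. Their part in the chemokine levels was not tested.

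Fibroblast markers, 5 in all, summed to 353 and 415 CPM on day 16, 439 and 392 CPM on day 23, 308 and 383 CPM on day 31, 1278 and 1281 CPM on day 38, and 1349 and 1138 CPM on day 45. *COL1A2*, a collagen chain and the most abundant, rose from 154 and 210 CPM on day 31 to 1151 and 1163 CPM on day 38 (log2 fold change 2.67 ± 0.14, edgeR's adjusted p = 2.63e-16), which made up the rise of the sum at that step. *LUM*, the proteoglycan lumican, fell from 96.2 and 101 CPM to 46.2 and 37.7 CPM (-1.23 ± 0.18, edgeR's adjusted p = 2.8e-06), *PDGFRA* rose by 1.04 (edgeR's adjusted p = 0.0263), and *DCN* was not called. *DCN* and *PDGFRA* rose from day 38 to day 45 by 1.36 and 1.25 (edgeR's adjusted p = 0.00041 and 0.00636). *LUM* went back up from its level on day 38 to 80.7 and 80.2 CPM on day 45. Of these 5, 2 were called higher and 1 lower at the earlier step (against 8.8 and 6.23% of all genes), and 3 higher and 0 lower at the later one (against 4.85 and 6.35%, with 2 higher by DESeq2). Of 6 cardiovascular markers, 3 were higher at the earlier step and 0 at the later one, where 0 also passed at an unadjusted p under 0.05 or by DESeq2, with sums of 31.3 and 26.1 CPM on day 31, 181 and 185 CPM on day 38 and 157 and 165 CPM on day 45, led by *MYH6*. The part of these markers in the chemokine levels was not tested.

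Airway-type and lung epithelial markers moved in both directions at the last 2 steps. From day 31 to day 38 *SFTPB*, a surfactant protein gene, fell from 499 and 502 CPM to 6.59 and 8.62 CPM (log2 fold change -6.04 ± 0.21, edgeR's adjusted p = 1.41e-21), and *AGR2*, of goblet cells, fell from 156 and 135 to 37.6 and 26.9 CPM (-2.17 ± 0.25, edgeR's adjusted p = 3.92e-08). *MUC5AC*, a secreted mucin, rose at that step from 1.54 and 0.815 CPM to 29.7 and 21.9 CPM (4.43 ± 0.73, edgeR's adjusted p = 2.8e-05). On day 45 *SFTPB* was at 46.2 and 50.2 CPM and *AGR2* at 51.1 and 75.9 CPM. *KRT5*, a basal cell keratin, went from 11.8 and 10.1 CPM on day 38 to 36.9 and 28.2 CPM (log2 fold change 1.57 ± 0.49, edgeR's adjusted p = 0.0309), and *MUC5B*, another mucin, from 17.1 and 13.2 to 96.5 and 47.4 CPM (2.25 ± 0.45, edgeR's adjusted p = 0.000526). *MUC5AC* moved the other way, from its level on day 38 to 0.436 and 2.08 CPM (-4.30 ± 0.73, edgeR's adjusted p = 6.24e-05). Of 4 basal markers, 0 were called from day 31 to day 38 (1 by DESeq2 and at an unadjusted p under 0.05), of 5 goblet markers 2 were higher and 1 lower, of 5 secretory airway markers 0 were called (0 by DESeq2 and at an unadjusted p under 0.05), and of 4 tested distal lung markers 1 was lower, against 8.8% higher and 6.23% lower of all genes. Of the basal markers, 1 was called higher from day 38 to day 45, of the goblet markers 2 were higher and 1 lower, of the secretory airway markers 1 was higher (*SCGB3A2*), and of the distal lung markers 1 was higher (*SFTPB*), against 4.85% higher and 6.35% lower of all genes. *NKX2-1* itself, whose GFP allele defined the sort, fell from 154 and 133 CPM on day 38 to 58.1 and 66.7 CPM on day 45 (-1.20 ± 0.15, edgeR's adjusted p = 6.3e-07), and *PAX8* was at 501 and 527 CPM and 536 and 500 CPM. The part of these shifts in the chemokine levels was not tested.

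Across the 10 libraries the genes most like *CXCL8* were *PHLDA1* (Pearson's r = 0.998 on log2 CPM with a prior count of 2), *SLC7A2*, *ADCY9*, *CCL20* and *EREG*, with r from 0.988 to 0.998 among 13114 genes with a mean of at least 5 CPM. The points are libraries of 5 days that share medium and time. By the same measure the r with *CXCL8* was 0.965 for *CXCL2*, 0.924 for *CXCL1*, 0.879 for *CXCL5* and 0.878 for *CCL2*. It was 0.847 for *CX3CL1*, 0.840 for *CXCL3* and 0.675 for *CXCL16*. *EREG*, which encodes the EGF receptor ligand epiregulin, had 0 CPM on days 16 and 23 and means of 1.88, 9.20 and 55.2 CPM on days 31, 38 and 45. For *CXCL16* the 5 were *TAGLN*, *S1PR2*, *ECEL1*, *PLEKHG2* and *JMJD8*, with r of 0.895 to 0.924. By Spearman's rank correlation 0 of the 5 genes were the same for either chemokine.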

How the data were processed

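The authors trimmed paired-end reads of sorted cells with Trimmomatic, aligned them to GRCh38 (GRCh38.p13 per the labels) with HISAT2 and counted them per gene with HTSeq. They deposited raw counts, whole numbers with no normalization, 1 table per library. Samples were assigned to days from their labels, and the study's methods give the 2 libraries of a day as biological replicates. Within each day the counts differed by more than sampling noise (chi-square per degree of freedom 8.38 to 13.7). No molecular identifiers are named, so PCR copies are not separated, and a floor of 3 counts and all intervals cover counting error only.

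CPM values used TMM factors. edgeR 4.0.16 (R 4.3.3) was fitted with glmQLFit and glmQLFTest over all 10 libraries, 1 mean per day and 5 residual degrees of freedom, on the 21014 genes that reached 5 counts in 2 or more libraries, after the study's filter on values under 5. p-values were adjusted by Benjamini-Hochberg over these genes, with a threshold of 0.05. SEs are the log2 fold change over the square root of F. The fit was tested on simulated data. Of the 28265 symbols, 91.1% were matched to GENCODE 44.

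Beside the 10 chemokines, and genes said to be named after their values were seen, the genes named are members of fixed lists that passed the threshold between days 31 and 38 or days 38 and 45, at most 4 per list and direction by size among those with a mean of at least 5 CPM, any member of a list of 10 or fewer, and the 5 genes most like *CXCL8* and *CXCL16*. The chemokines and lists were chosen with earlier results of these data known. Alternatives were DESeq2 1.42.0, no TMM factors, upper-quartile factors, no filter, filterByExpr, the 4 libraries compared alone, a replicate block and each library left out.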

Additional observations from a re-analysis of the deposited data

How the results depend on the processing

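The number of chemokines called in each of the 5 comparisons, 4, 4, 6, 6 and 7 in the order day 23 against 16, 31 against 23, 38 against 31, 45 against 38 and 45 against 31, was the same with DESeq2, without TMM factors, with upper-quartile factors and without the filter. With filterByExpr day 45 against 38 gave 5, since *CXCL5* missed the threshold (edgeR's adjusted p = 0.0503). Fitting only the 4 libraries compared gave 0 for day 23 against 16 and 1 for day 31 against 23, with fewer genes tested and 2 residual degrees of freedom, and 7 for day 45 against 38. The number of all genes called in those fits is not given here, so these counts do not set the chemokines apart. Leaving out each library gave 3 to 4, 3 to 4, 6 to 6, 5 to 6 and 6 to 8. All genes called ranged from 1350 to 2383 (2296 with all libraries), 206 to 646 (473), 1764 to 3614 (3160), 1166 to 2816 (2353) and 3300 to 5175 (4719) over the same fits. Signs reversed for *CXCL16*, day 23 against 16 (-0.37 without day 16 replicate 2 and -0.12 without day 23 replicate 2, with -0.37 to 2.02 over the fits that left out a library), for *CXCL3* (-1.19 without day 31 replicate 1, range -1.19 to 1.07) and *CXCL6* (-2.3 without day 31 replicate 2, range -2.3 to 6.004), day 31 against 23, for *CX3CL1*, day 38 against 31 (-0.078 without TMM factors, -0.041 without day 31 replicate 2, range -0.041 to 0.33), and for *CXCL6*, day 45 against 38 (-0.15 without day 38 replicate 2, range -0.15 to 0.78). These differences were called neither in the fit of all libraries nor in those fits. *CXCL6*, day 45 against 31, was called without day 31 replicate 2, and *CXCL5*, day 23 against 16, was called lower without day 23 replicate 2 (edgeR's adjusted p = 0.0108), which left a day 23 library with no *CXCL5* count. The cause of these changes was not tested. The replicate block gave 4, 4, 6, 6 and 8 calls, with *CXCL16* added in day 45 against 31 (edgeR's adjusted p = 0.0447), and raised all genes called to 2703, 678, 3472, 2691 and 4994. Whether libraries with the same replicate number belong together is not given in the sources used here. Their deviations from the day mean correlated at -0.032 to 0.0199 over 10 pairs of days. This showed no pairing but cannot settle it, since noise between libraries could hide a pairing. With 2 libraries per day, counts under about 10 limit *CXCL6* and the early days of *CXCL1*, *CXCL3*, *CXCL5*, *CXCL8*, *CCL2* and *CCL20*.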

Other observations

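Genes that lie between or beside the chemokine loci, named here after their values were seen, give the local picture on chromosome 4. Between *CXCL8* and *CXCL2* lie *PF4V1*, *PF4* and *PPBP*, the platelet chemokines, which had a mean of at most 0.0546 CPM at any day. Beyond *CXCL2*, the next gene, *MTHFD2L*, an enzyme of mitochondrial folate metabolism (chr4:74114174-74303099), was not called from day 31 to day 38 and rose from a mean of 44.7 CPM on day 38 to 77.1 CPM on day 45 (log2 fold change 0.79, edgeR's adjusted p = 0.00788). Past *MTHFD2L* and *EPGN*, *EREG* (chr4:74365145-74388749) rose from a mean of 1.88 CPM on day 31 to 9.20 CPM on day 38 (log2 fold change 2.28, edgeR's adjusted p = 0.000333) and 55.2 CPM on day 45 (2.58, edgeR's adjusted p = 1.92e-05). *AREG*, the gene of amphiregulin and like *EREG* an EGF receptor ligand, had means of 0.445 CPM on day 38 and 7.62 CPM on day 45 (log2 fold change 4.05, edgeR's adjusted p = 0.0656), and *EPGN* was not called. On the other side *RASSF6*, next to *CXCL8*, and *AFM* were not called at either step, *ANKRD17*, the farthest, fell from 462 to 353 CPM between days 31 and 38 (edgeR's adjusted p = 0.0249), and *ALB* and *AFP*, genes of liver-type serum proteins, rose from 38.1 to 107 CPM and from 42.5 to 97.5 CPM between days 38 and 45 (edgeR's adjusted p = 0.000308 and 0.00287). At the *CCL2* locus, *CCL7*, *CCL11*, *CCL8*, *CCL13* and *CCL1* had means of at most 0.944 CPM at any day, against 78.2 CPM for *CCL2* on day 45.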
